A study of Mus musculus with 45 samples.

Results

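The naive pluripotency network was followed here through 10 genes that encode transcription factors, Pou5f1, Sox2, Nanog, Klf2, Klf4, Klf5, Esrrb, Tfcp2l1, Tbx3 and Zfp42. They were taken by gene symbol, or by gene identifier where a table had no symbol, and made up 10 of the 55401 genes in the deposited gene tables. The 45 RNA-seq libraries came from mouse embryonic stem cells (mESCs) in 15 groups of 3 libraries. Cells whose histone H3K9 methyltransferase EHMT2 carries a degron tag on both alleles (EHMT2-dTAG-mcherry, strain BL6/129, 3 clonal lines) received the degrader dTAG or the solvent DMSO. The time course held 24 h and 7 d of DMSO or dTAG, and the washout held 15 d of DMSO, 15 d of dTAG, and 7 d of dTAG followed by 8 d without it (Recovery). For sorting, EHMT2-dTAG cells with an added MERVL-GFP reporter spent 72 h in DMSO or dTAG, after which GFP-negative cells are called mESC here and GFP-positive ones 2CLC, for 2-cell-like cell; the labels name no clone for these libraries. In the last experiment, wild-type (WT) J1 mESCs and Dppa4 KO mESCs (made with CRISPR/Cas9) were kept for 48 h in DMSO or in UNC0638, which blocks the enzymes EHMT1 and EHMT2. All cells grew in serum with LIF, and mouse embryonic fibroblasts served as feeders, so that feeder RNA can be part of a library.

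These factors hold mESCs in a state close to the epiblast before implantation. Pou5f1 (OCT4) and Sox2 bind DNA as partners and, with Nanog, form the core that every pluripotent state shares, while Klf2, Klf4, Klf5, Esrrb, Tfcp2l1, Tbx3 and Zfp42 (REX1) mark the naive state in particular. LIF acts through STAT3 on Klf4 and Tfcp2l1, WNT acts by relieving the repressor TCF7L1 from Esrrb, Klf2 and Tfcp2l1, and FGF signalling through ERK opposes the network and opens the way to the primed state. A small share of mESCs enters the 2-cell-like state at any time, in which transcripts of the early embryo such as those of the Zscan4 genes appear.

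The time course, washout and sorting tables hold the authors' group means of normalized counts (read counts divided by the library's DESeq2 size factor), with no value for a single library. These means therefore carry no SD and no test, and they are compared here as a log2 ratio after adding 1 to each mean. A ratio is called past the fold when it is at least 1 in absolute size, and only genes that averaged at least 10 over a table's groups were counted. The Dppa4 table has every library, with 8399885 to 12710949 gene reads in each, and was tested with limma. Each table was normalized on its own, so a level in one table cannot be tested against a level in another. In bulk RNA, fewer cells of a type and less RNA per cell cannot be told apart.

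Embryonic stem cell markers were high in all groups, with a summed level of 8 marker genes (5 of them members) of 3131 to 6503 CPM (normalized counts scaled to the total of their group or library). Sorting separated the 2-cell-like state, since the summed level of 11 genes of that state, Zscan4c, Zscan4d and Zscan4f among them, was 92.8 CPM in DMSO mESCs and 14786 in DMSO 2CLCs. In dTAG it was 1273 in mESCs and 23443 in 2CLCs. The degron acts on the protein, and Ehmt2 RNA says nothing on its loss: the Ehmt2 mean was 616 in DMSO and 609 in dTAG at 24 h. Dppa4 was read in each WT library (700.4 to 920 normalized counts) and had a count of 0 in all 6 Dppa4 KO libraries. A count of 0 in a library leaves room for an expected count of up to 3 reads.

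The genes lie apart on the mouse genome (mm10, gene bounds as annotated, with reads in exons counted per gene). Pou5f1 is at chr17:35506018-35510772, Sox2 at chr3:34650405-34652461 and Nanog at chr6:122707489-122714633. The Krüppel-like factors are at chr8:72319033-72321656 (Klf2), chr4:55527143-55532466 (Klf4, minus strand) and chr14:99298691-99315036 (Klf5). Esrrb spans chr12:86361117-86521628, Tfcp2l1 chr1:118627945-118685168, Tbx3 chr5:119670669-119684724 and Zfp42 chr8:43295063-43306980 (minus strand). Some of them share sequence with other annotated genes. Zfp42-ps1, a pseudogene of Zfp42, held 317 to 1037 normalized counts in the group means and 788 to 1386 in the libraries of the Dppa4 experiment. The level of Zfp42 is therefore uncertain by reads that could lie in either. Nanog-ps1 held at most 17.2 and Nanog-ps2 held 0, and Tbx3os1, which lies antisense to Tbx3, held 1.06 to 43.1. Sox2 lies inside Sox2ot, whose own group means were 8.16 to 33.7.

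Levels were ordered per kilobase of annotated exon, a scale on which genes can be set side by side, although reads across exon junctions were lost and genes with many short exons are understated. Pou5f1 had the highest level per kilobase in all 7 groups of unsorted EHMT2-dTAG cells, from 4863 normalized counts per kilobase in dTAG at 7 d to 9118 in DMSO at 15 d. Tbx3 had the lowest in all 15 groups, from 50.6 in Recovery to 414 in Dppa4 KO DMSO. Sox2, a gene of a single exon, led in the sorted mESCs with 5463 in DMSO and 4895 in dTAG, and Nanog led in the sorted 2CLCs with 3980 and 4542. In WT DMSO the 3 libraries gave 4985 ± 755 (SD, n = 3) for Pou5f1 and 4653 ± 724 for Nanog, 2 neighbours whose difference was smaller than their spread. Sox2 (2558 ± 557) and Zfp42 (2530 ± 255) followed and also lay within each other's spread. Esrrb (1847 ± 264) and Klf2 (1799 ± 171) came next, with Tfcp2l1 (588 ± 316), Klf5 (499 ± 141), Klf4 (424 ± 92.4) and Tbx3 (175 ± 117) well below. Klf4 stood in place 9 of 10 in WT DMSO and, in DMSO EHMT2-dTAG cells, in place 3 at 24 h, place 6 at 7 d, and place 7 at 15 d and in sorted mESCs, which cannot be tested between tables.

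**Figure D1:**
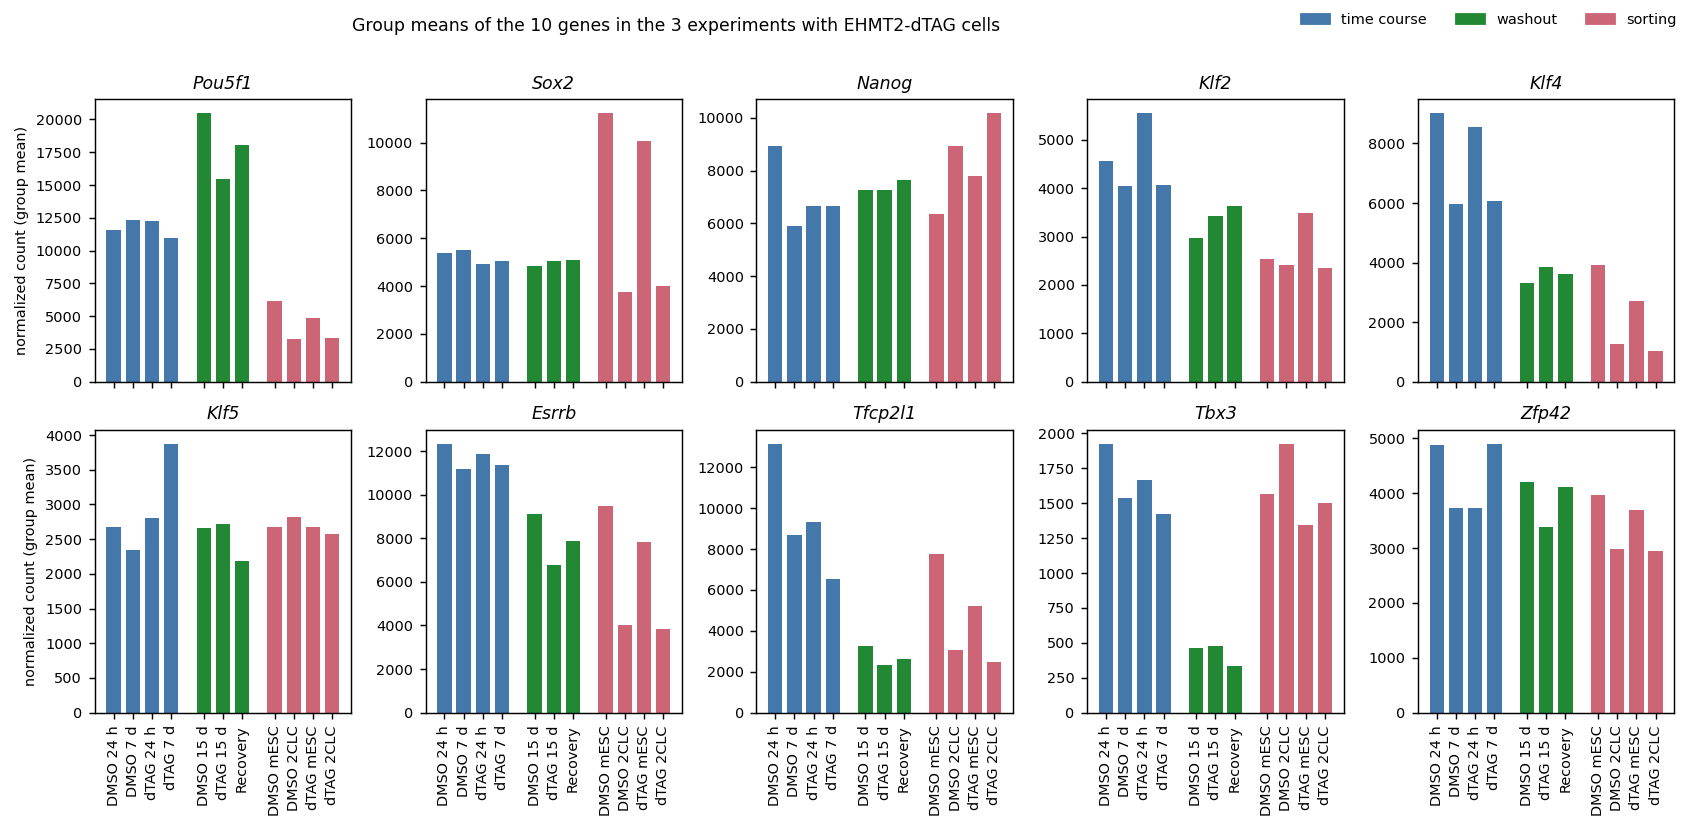
Normalized count (group mean, vertical axis from 0, a scale of its own for each gene) of the 10 genes in the 4 time course, 3 washout and 4 sorted groups of EHMT2-dTAG cells; bars are the authors' means of 3 libraries and have no error. In the sorted groups the bars of Sox2, Klf4, Esrrb and Tfcp2l1 are lower in 2CLCs than in mESCs and that of Nanog is higher, while most bars in the other experiments differ little between DMSO and dTAG.

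In sorted 2CLCs the means of Sox2, Klf4, Esrrb and Tfcp2l1 were lower than in mESCs past the fold, that of Nanog was higher within it, and those of Klf5 and Tbx3 lay near their mESC level. This comparison asks which part of the pluripotent programme is lower in cells that carry 2-cell-like transcripts. In DMSO, 4 of the 10 genes lay past the fold, all of them lower, against 24.2% of the 17331 genes past the fold in either direction and 8.76% lower. Their median log2 ratio was -0.67 and that of all genes -0.03. The summed level of the 10 genes was 6367 CPM in DMSO mESCs and 3532 in DMSO 2CLCs, and 5704 and 2976 in dTAG. The normalization sets each sum against all gene reads, in which the 2-cell-like genes took their larger share in 2CLCs.

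Among the core factors, Sox2 had a mean normalized count of 11238 in DMSO mESCs and 3736 in DMSO 2CLCs, a log2 ratio of -1.59. In dTAG its means were 10068 and 4020, a log2 ratio of -1.32. Its partner Pou5f1 moved less, from 6183 to 3247 in DMSO (-0.93) and from 4871 to 3320 in dTAG (-0.55), on the near side of the fold both times. Nanog went the other way, from 6350 to 8924 in DMSO (0.49) and from 7785 to 10184 in dTAG (0.39). On the scale per kilobase Nanog thus made up 14.9% of the 10 genes' summed level in DMSO mESCs and 32.2% in DMSO 2CLCs, and Sox2 28.8% and 14.7%.

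The 3 Krüppel-like factors, which share a DNA-binding domain and many targets, were not alike. Klf4, which LIF sustains, had the lowest ratio of the 10 genes, with 3921 in mESCs and 1257 in 2CLCs in DMSO (-1.64) and 2709 and 1036 in dTAG (-1.39). Klf2 had 2529 and 2406 in DMSO (-0.07) but 3496 and 2350 in dTAG (-0.57), where the mESC mean was the higher one. Klf5 had 2678 and 2818 in DMSO (0.07) and 2680 and 2570 in dTAG (-0.06), the flattest of the family.

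Esrrb, an orphan nuclear receptor that binds beside OCT4 at many enhancers, had 9500 in mESCs and 4010 in 2CLCs in DMSO (-1.24) and 7826 and 3858 in dTAG (-1.02). Tfcp2l1, a grainyhead-like factor downstream of LIF, had 7777 and 3074 in DMSO (-1.34) and 5199 and 2494 in dTAG (-1.06). Tbx3, a T-box repressor that can stand in for LIF signals, had 1565 and 1924 in DMSO (0.30) and 1345 and 1501 in dTAG (0.16). Zfp42, the zinc-finger gene used as a reporter of the naive state, had 3973 and 2991 in DMSO (-0.41) and 3687 and 2955 in dTAG (-0.32). The same 4 genes lay past the fold in dTAG as in DMSO, against 20.8% of all genes in either direction and 6.95% lower. When ratios were centred on the median of all genes, which was -0.06 in dTAG, 2 of the 4 (Sox2 and Klf4) stayed past the fold there and Esrrb and Tfcp2l1 came just under it. All 11 genes of the 2-cell-like list were past the fold upward in both comparisons, and 3 and 5 of 12 measured feeder genes were too, and so were 4 and 5 of 8 primitive endoderm genes and 3 of 5 trophectoderm genes in each, with a summed feeder level of 784 CPM in DMSO mESCs and 502 in DMSO 2CLCs, and of 1037 and 822 in dTAG. Primitive endoderm genes summed to 43.8 and 75.2 CPM in DMSO and 66.0 and 99.3 in dTAG, and trophectoderm genes to 135 and 57.8 and to 86.2 and 45.7. The part of these cells in the members' ratios was not tested.

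**Figure D2:**
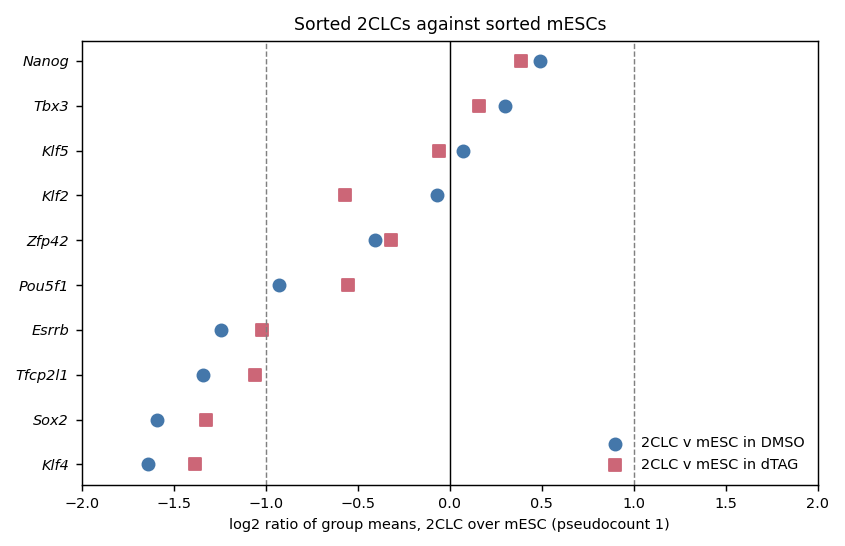
Log2 ratio of group means, 2CLC over mESC (horizontal axis, pseudocount 1), for the 10 genes in DMSO (circles) and in dTAG (squares); dashed lines mark the fold of 1 in either direction and no error can be given. Klf4, Sox2, Tfcp2l1 and Esrrb lie left of the lower line in both treatments and Nanog lies to the right of 0.

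The 4 genes past the fold and Nanog, whose ratio was the highest in both treatments, were picked for a view of their proximal promoters. The 250 bases before their annotated start (RefSeq, GRCm38.p6) are shown. These starts can differ from the gene bounds given above, which are from GENCODE. For Sox2 the window ends at 34649994, ahead of the GENCODE start at 34650405. Of the 10 genes, 8 had an entry in the promoter table. Capitals mark matches, on either strand, to 5 short motifs: the octamer core ATGCAAA of OCT4, the SOX core ACAATG, the STAT palindrome TTCNNNGAA, the ESRRB element AAGGTCA and the GC box GGGCGG. Among 32851 promoters of the same length, 4.12% held the octamer core, 10.69% the SOX core, 7.02% the STAT palindrome, 4.08% the ESRRB element and 32.74% the GC box. The regions are chr3:34649745-34649994 (Sox2, plus strand), chr4:55532476-55532725 (Klf4, minus strand), chr12:86360867-86361116 (Esrrb, plus), chr1:118627695-118627944 (Tfcp2l1, plus) and chr6:122707239-122707488 (Nanog, plus).
Sox2: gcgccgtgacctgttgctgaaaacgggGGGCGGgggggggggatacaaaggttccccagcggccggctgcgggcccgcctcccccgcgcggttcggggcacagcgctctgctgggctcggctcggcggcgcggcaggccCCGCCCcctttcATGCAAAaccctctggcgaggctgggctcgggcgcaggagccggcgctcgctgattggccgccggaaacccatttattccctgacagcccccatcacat
Klf4: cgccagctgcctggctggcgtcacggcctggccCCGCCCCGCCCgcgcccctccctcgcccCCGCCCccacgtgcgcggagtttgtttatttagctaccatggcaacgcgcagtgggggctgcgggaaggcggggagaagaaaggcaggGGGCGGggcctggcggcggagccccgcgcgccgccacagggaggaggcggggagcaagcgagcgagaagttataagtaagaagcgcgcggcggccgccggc
Esrrb: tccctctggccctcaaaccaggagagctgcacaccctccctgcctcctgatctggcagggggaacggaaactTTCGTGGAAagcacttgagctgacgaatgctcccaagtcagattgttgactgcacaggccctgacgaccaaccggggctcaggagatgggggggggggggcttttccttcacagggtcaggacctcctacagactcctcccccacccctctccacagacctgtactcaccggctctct
Tfcp2l1: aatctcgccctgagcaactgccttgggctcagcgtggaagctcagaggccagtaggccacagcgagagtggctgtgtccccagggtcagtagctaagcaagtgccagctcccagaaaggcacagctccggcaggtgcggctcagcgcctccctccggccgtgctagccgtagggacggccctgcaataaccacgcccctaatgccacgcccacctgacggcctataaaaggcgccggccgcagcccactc
Nanog: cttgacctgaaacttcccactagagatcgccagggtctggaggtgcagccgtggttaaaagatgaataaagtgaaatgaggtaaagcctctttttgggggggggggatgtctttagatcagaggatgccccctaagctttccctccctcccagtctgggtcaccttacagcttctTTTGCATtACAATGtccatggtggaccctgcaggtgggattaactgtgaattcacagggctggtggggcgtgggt

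In the Nanog promoter the octamer core (bases 75 to 69 before the start) and the SOX core (67 to 62) stand next to each other with 1 base between them, the arrangement at which OCT4 and SOX2 bind as a pair. Sox2 held the octamer core at bases 99 to 93 and 2 GC boxes, Klf4 held 4 GC boxes, and Esrrb held the STAT palindrome at bases 178 to 170. Tfcp2l1 held none of the 5 motifs in this window. Among the members with an entry that are not printed, Zfp42 held the octamer core at bases 185 to 179. GC boxes also lay in the windows of Zfp42, Klf2 and Pou5f1. GC content was 52% in Nanog, close to the median of 52.4% of all promoters, and 72% in Sox2, 74% in Klf4, 60.8% in Esrrb and 65.2% in Tfcp2l1. A match of letters is a description of the window and does not show binding.

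The genes around the network are given by counts, to be read against the 24.2% of all genes past the fold in DMSO (15.4% higher, 8.76% lower). Of 27 other pluripotency genes, 4 were past the fold upward and 11 downward in DMSO 2CLCs. Dppa3 (STELLA, a maternal factor) went from a mean of 10.4 to 132 (3.54), while Fbxo15 went from 461 to 4711 (3.35) and Dppa2, the partner of Dppa4, from 437 to 4063 (3.21). In the LIF-STAT3 list 4 of 10 were lower past the fold and none higher in DMSO, with the receptor chains Il6st (1164 to 321, -1.85) and Lifr (1160 to 387, -1.58) and the feedback inhibitor Socs3 (3228 to 1264, -1.35) leading. In dTAG 2 of 10 were lower (beside 6.95% of all genes), Lifr (-1.34) and Il6st (-1.32). In the WNT-TCF7L1 list 1 gene was higher and 3 lower of 11 in DMSO. Axin2, a feedback gene of the pathway, went from 84.7 to 444 (2.37). Lef1, which encodes a nuclear factor of the same pathway, went from 91.6 to 16.6 (-2.40). The median of the list was -0.02, near that of all genes. In the FGF-ERK list 3 were higher and 4 lower of 15, among them the receptor gene Fgfr2 (26 to 81.2, 1.61), and among 10 measured exit and primed genes 1 was higher (Sox3, 83.4 to 908, 3.43) and 3 lower (Otx2, 210 to 36.7, -2.49).

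With dTAG the 10 genes stayed within the fold. None of them lay past the fold between dTAG and DMSO in any of the 5 comparisons, at 24 h, 7 d and 15 d and in sorted mESCs and sorted 2CLCs. Among all genes, 4.92% did at 24 h, 8.2% at 7 d, 4.78% at 15 d, 9.56% in sorted mESCs and 6.86% in sorted 2CLCs. The median log2 ratio of the 10 genes was -0.10, 0.01, 0.02, -0.19 and -0.05 in that order, beside medians of all genes between -0.03 and 0.03. Without library values, ratios of this size cannot be set against the spread between clones. At shares of 4.78% to 9.56%, 0 of 10 past the fold does not set the members apart from other genes.

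Tfcp2l1 was the member that was lower in dTAG each time. Its means in DMSO and dTAG were 13148 and 9317 at 24 h (-0.50), 8701 and 6528 at 7 d (-0.41), and 3279 and 2344 at 15 d (-0.48). In sorted cells they were 7777 and 5199 in mESCs (-0.58) and 3074 and 2494 in 2CLCs (-0.30). The 5 comparisons share no group, although the same clones are named in the time course and the washout. Of 15095 genes past the filter in all 3 tables, 8.23% were below 0 in all 5 comparisons, and 103 (0.68%) were as low as Tfcp2l1 or lower, meaning that each of their ratios was at or below its weakest. Tfcp2l1 was picked out after its values were seen.

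The largest single ratio was that of Klf5, which regulates self-renewal and the choice against primitive endoderm, at 7 d, with a mean of 2351 in DMSO and 3876 in dTAG (0.72). At 24 h its means were 2671 and 2810 (0.07) and at 15 d 2668 and 2723 (0.03), so the 7 d ratio was not seen at the times on either side of it. Trophectoderm genes, a lineage that also uses Klf5, summed to 86.5 CPM in DMSO and 147 in dTAG at 7 d, with 3 of 6 measured genes past the fold upward, and their part in the Klf5 ratio was not tested. Nanog had 8930 in DMSO and 6670 in dTAG at 24 h (-0.42) but 5905 and 6656 at 7 d (0.17), where the DMSO mean had moved and the dTAG mean had not. Zfp42 turned the same way, with 4885 and 3737 at 24 h (-0.39) and 3733 and 4903 at 7 d (0.39). Klf2 was highest in dTAG at 24 h, with 5555 against 4562 in DMSO (0.28), and in sorted mESCs, with 3496 against 2529 (0.47).

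Pou5f1, Sox2, Klf4 and Esrrb had the smallest ratios in the time course, with ratios between -0.17 and 0.08. Pou5f1 had 11604 in DMSO and 12276 in dTAG at 24 h, and 12333 and 10933 at 7 d. Sox2 had 5368 and 4931, then 5500 and 5055. Esrrb had 12344 and 11880, then 11200 and 11371. At 15 d Pou5f1 (20496 and 15490, -0.40) and Esrrb (9129 and 6782, -0.43) were lower in dTAG, and Sox2 was not (4860 and 5046, 0.05). Klf4 had 9025 in DMSO and 8541 in dTAG at 24 h, 5953 and 6071 at 7 d, and 3302 and 3865 at 15 d.

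Between 24 h and 7 d of DMSO alone, 8 of the 10 genes were lower, none of them past the fold, against 1.94% of all genes past it. Klf4 (9025 to 5953, -0.60), Nanog (8930 to 5905, -0.60) and Tfcp2l1 (13148 to 8701, -0.60) differed most. These differences between the controls were larger than any ratio of dTAG to DMSO in the time course except that of Klf5 at 7 d. In the same cells the feeder list summed to 1281 CPM at 24 h and 909 at 7 d in DMSO, and to 1152 and 1078 in dTAG. The part of feeders in these ratios was not tested.

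After washout no member differed past the fold. Recovery cells had none past it against DMSO at 15 d, beside 2.69% of all genes, and none past it against dTAG at 15 d, beside 6.68%. These comparisons share their groups with that of dTAG and DMSO at 15 d, so the 3 means are given side by side. Pou5f1 had 20496 in DMSO, 15490 in dTAG and 18081 in Recovery, Esrrb 9129, 6782 and 7899, Tfcp2l1 3279, 2344 and 2622, and Zfp42 4214, 3385 and 4118. In each of these 4 genes, all lower in dTAG than in DMSO, the Recovery mean lay between the others. It did so in Klf4 too, which was higher in dTAG. The share of all genes with this order was not computed. Klf2 had 2964, 3429 and 3627, Klf4 3302, 3865 and 3621, Nanog 7278, 7279 and 7651, and Sox2 4860, 5046 and 5093. Klf5 (2668, 2723 and 2189) and Tbx3 (460, 478 and 336) were lowest in Recovery. The feeder list summed to 631 CPM in DMSO, 782 in dTAG and 324 in Recovery, and the 2-cell-like list to 25.7, 695 and 40.3. The primitive endoderm list summed to 76.0, 138 and 59.4, with 7 of 8 measured genes lower past the fold in Recovery than in dTAG. Trophectoderm genes summed to 61.6, 57.1 and 67.1. Whether the members' means moved with any of these lists was not tested.

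**Figure D3:**
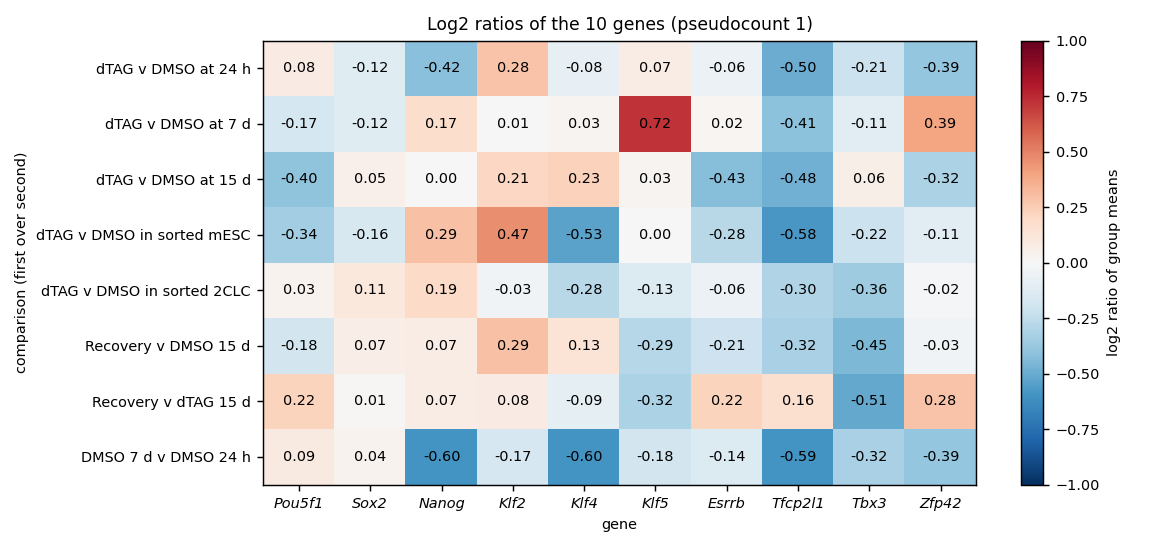
Log2 ratios of group means (colour and printed value, pseudocount 1) of the 10 genes (columns) in 8 comparisons of EHMT2-dTAG cells (rows, first group over second); no value has an error. No value reaches 1 in either direction, the highest is Klf5 in dTAG at 7 d (0.72), and Tfcp2l1 is below 0 in each of the 5 rows of dTAG over DMSO.

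The other genes of the pathway are given by counts past the fold with dTAG, beside the shares of all genes above. Of the 27 other pluripotency genes none did at 24 h or 15 d, 2 were higher at 7 d (Gbx2, 111 to 239, 1.10, and Dppa2, 374 to 795, 1.09), and 1 was higher in sorted mESCs (Fbxo15, 461 to 1138, 1.30). None of the 27 did in sorted 2CLCs. In the LIF-STAT3 list of 10 only Myc lay past the fold, higher at 7 d (87.9 to 330, 1.90) and in sorted 2CLCs (80.2 to 190, 1.23). Of 10 measured exit and primed genes, 2 were higher at 24 h, the DNA methyltransferase gene Dnmt3a (853 to 1733, 1.02) and Etv1 (42.7 to 97, 1.16), and 2 at 7 d, Zic2 (127 to 268, 1.07) and Etv1 (73.1 to 179, 1.28). At 15 d Fgf5, a marker of the primed state, went from 17.7 to 39.1 (1.10) and the immediate early gene Egr1 from 1696 to 4401 (1.38), while the WNT target Sp5 went from 26 to 11 (-1.16). The median log2 ratio of the exit and primed list was 0.30 at 24 h, 0.59 at 7 d and 0.21 at 15 d. In the FGF-ERK list of 15, Fgfr2 was higher at 24 h (48.8 to 99.8, 1.01) and in sorted mESCs (26 to 53.5, 1.01), and Dusp6 (450.01 to 980, 1.12) and Etv4 (327 to 672, 1.04) were in sorted 2CLCs. Sp5 was higher in sorted 2CLCs (12 to 25.9, 1.06) and Sox3, of the exit and primed list, in sorted mESCs (83.4 to 188, 1.16). The 2-cell-like genes were past the fold upward with dTAG in 11 of 11 at 24 h, 7 d and 15 d and in sorted mESCs, and in 6 of 11 in sorted 2CLCs. Of the measured feeder genes 2 of 12 were at 24 h, 4 of 12 at 7 d, 0 of 13 at 15 d, 9 of 12 in sorted mESCs and 10 of 12 in sorted 2CLCs, and their part in the ratios was not tested.

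In Dppa4 KO mESCs Klf4 and Tbx3 were higher than in WT. The experiment allows a test over libraries, in a fit of 17258 genes that also asks whether UNC0638 changes the network and whether that depends on DPPA4, a chromatin factor that with DPPA2 activates genes of the 2-cell-like state. The labels speak of 3 independent clones of each line, and DPPA4 loss cannot be told apart from any other difference between the lines.

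Klf4 had normalized counts of 1617, 1100 and 1165 in WT DMSO and 2639, 2700 and 2359 in Dppa4 KO DMSO. In UNC0638 it had 1464, 1386 and 1178 in WT and 2200, 2329 and 2057 in Dppa4 KO. The genotypes did not overlap in either treatment. The log2 fold change of Dppa4 KO over WT was 1.01 (SE 0.16, limma adjusted p = 0.0025) in DMSO and 0.71 (SE 0.16, limma adjusted p = 0.0223) in UNC0638. The UNC0638 value fell short of the threshold when the WT UNC0638 library of replicate 2 (adjusted p = 0.0807, limma) or replicate 3 (0.102) was left out, or the Dppa4 KO UNC0638 library of replicate 2 (0.0613). It also did with the libraries of the groups compared alone (0.0532).

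Tbx3 had 2058, 727 and 698 in WT DMSO and 3065, 2690 and 2472 in Dppa4 KO DMSO. Replicate 1 of WT stood far above the other WT libraries, in UNC0638 too, where WT had 1683, 998 and 703 and Dppa4 KO 2569, 1845 and 1607. The log2 fold change was 1.43 (SE 0.35, limma adjusted p = 0.0244) in DMSO, where the genotypes did not overlap, and 0.90 (SE 0.35, limma adjusted p = 0.159) in UNC0638, where they did. The DMSO call was lost with edgeR (adjusted p = 0.0566) and DESeq2 (0.0781), and in limma without WT DMSO replicate 2 (0.121) or 3 (0.103) or Dppa4 KO DMSO replicate 1 (0.0974) or 2 (0.067). Tbx3os1, antisense to Tbx3, had 10.5 to 52.4 in WT DMSO and 70.8 to 85.1 in Dppa4 KO DMSO.

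These 2 of 10 genes, both higher, stood beside 6.63% of all genes called in Dppa4 KO v WT in DMSO and 2.39% called higher. In UNC0638 1 of 10 was called (Klf4), beside 4.47% of all genes, 1.77% of them higher. With the fold of 1 added to the test, both stayed in DMSO (1.33% of all genes higher) and Klf4 did not in UNC0638. The median log2 fold change of the 10 genes was 0.45 in DMSO and 0.21 in UNC0638, and that of all genes -0.03 and -0.04. The 2 comparisons share no library, but they compare the same 2 lines and rest on 1 estimate of the spread over all libraries. They are therefore not independent.

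Esrrb came close to the threshold. It had 12718, 9531 and 11253 in WT DMSO and 16865, 16528 and 14883 in Dppa4 KO DMSO, with no overlap and a log2 fold change of 0.53 (SE 0.16, limma adjusted p = 0.05003). It passed with DESeq2 (0.0144), with TMM scaling (0.0433) and with the 6 libraries alone (0.0397). It did not pass with edgeR, and leaving out each library in limma gave it an adjusted p of 0.0184 to 0.213. Klf5 had 3445, 2148 and 2195 in WT DMSO, again with a high replicate 1, and 3446, 3674 and 4224 in Dppa4 KO DMSO (0.57, SE 0.19, limma adjusted p = 0.0775). Without WT DMSO replicate 1 its adjusted p in limma was 0.0169 and that of Esrrb 0.0414. Leaving out other libraries took the adjusted p of Klf5 up to 0.268. Every Dppa4 KO library was above every WT library in DMSO for Klf4, Klf5, Esrrb and Tbx3, 4 of 10 genes, beside 13.5% of all genes. Pou5f1 had 7806, 7569 and 9622 in WT UNC0638 and 11493, 11497 and 16985 in Dppa4 KO UNC0638 (0.66, SE 0.18, limma adjusted p = 0.0513). It also had no overlap, as 11.6% of all genes had upward in UNC0638. Pou5f1 passed in edgeR (0.0445) and DESeq2 (0.0113), while leaving out each library in limma gave an adjusted p of 0.0496 to 0.202.

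In the main fit Esrrb, Klf5 and Pou5f1 were thus not called between genotypes, and neither were the other 5 genes. The intervals of these 5 in DMSO bound the difference. Sox2 had 6583, 4540 and 4663 in WT DMSO and 7253, 6445 and 6442 in Dppa4 KO DMSO, with a 95% interval of the log2 fold change from -0.002 to 0.74. Nanog had 12303, 9428 and 9563 and then 9093, 9942 and 9233, with an interval from -0.47 to 0.19, the only one of the 10 with a negative estimate (-0.14). Klf2 (interval -0.28 to 0.45) and Zfp42 (-0.12 to 0.50) lay around 0. For Tfcp2l1 the interval was wide, from -0.07 to 1.43, because WT DMSO had 8869, 4684 and 3102 while Dppa4 KO DMSO had 7787, 8075 and 8390. WT replicate 1 was also high in the sum of the 10 genes, which was 67212, 49220 and 53821 normalized counts in WT DMSO. In WT UNC0638 the sums were 57211, 48905 and 49100, and in Dppa4 KO DMSO 71777, 73396 and 72131. The part of this library difference in the genotype contrasts was not tested.

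**Figure D4:**
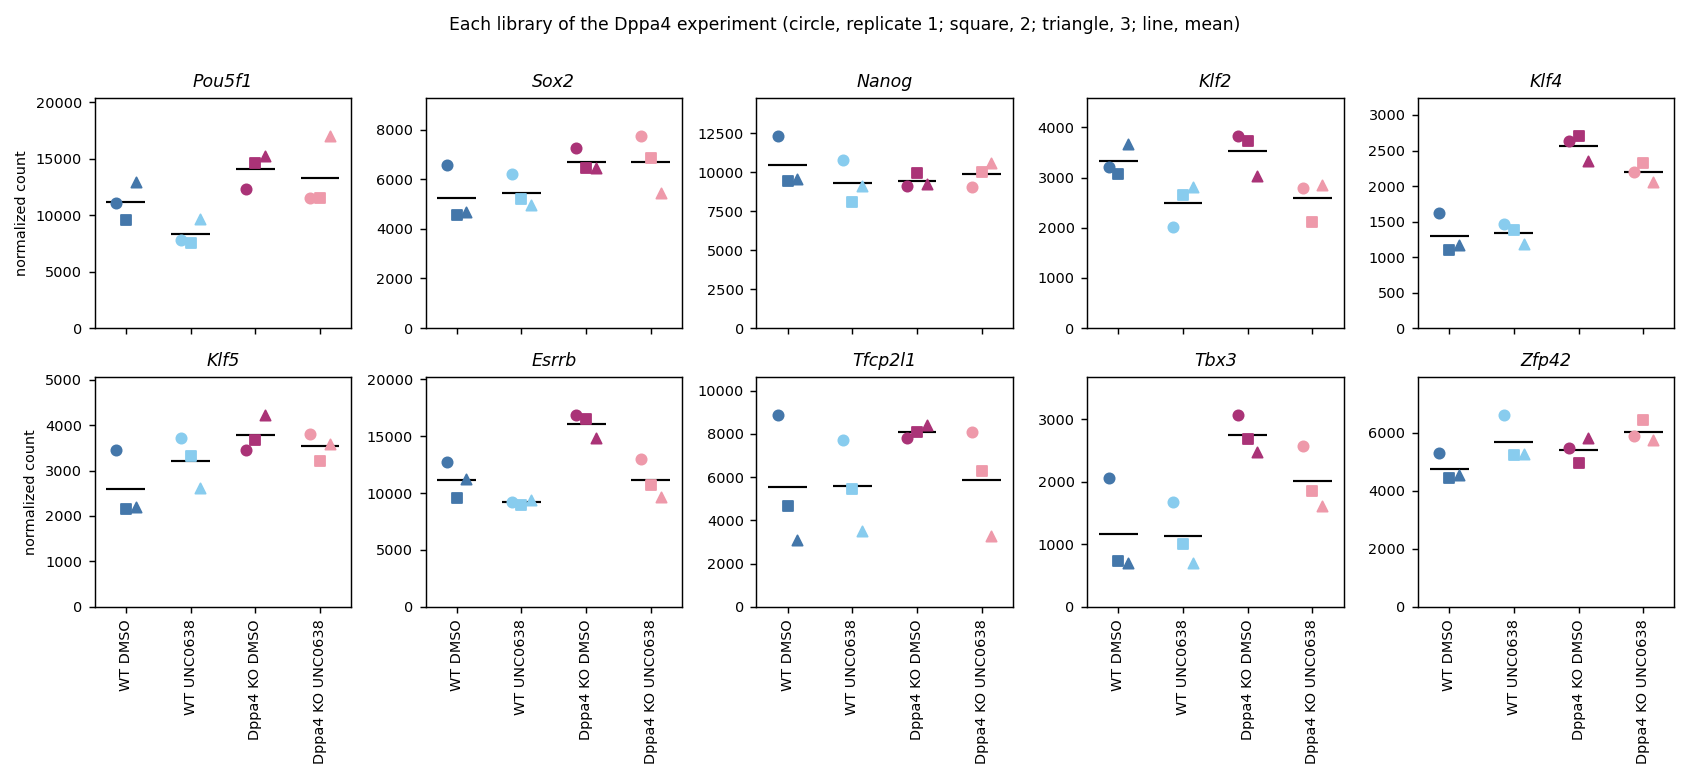
Normalized count (vertical axis from 0) of the 10 genes in each of the 12 libraries of the Dppa4 experiment, with symbols for the replicate number and a line at the group mean. Klf4 is higher in all 6 Dppa4 KO libraries than in all 6 WT libraries. WT replicate 1 stands above the other WT libraries in Tbx3, Tfcp2l1, Klf5, Nanog, Klf4 and Zfp42, and in DMSO also in Sox2 and Esrrb.

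The genotypes also differed in markers of other cells. The 2-cell-like list summed to 9.64 to 149 CPM in WT DMSO and to 91.3 to 687 in WT UNC0638, and to 0 to 0.57 in the 6 Dppa4 KO libraries. The feeder list summed to 726 to 1113 CPM in the 6 WT libraries and to 518 to 625 in the 6 Dppa4 KO libraries. In DMSO 13 of 13 measured feeder genes had a lower estimate in Dppa4 KO, 5 of them called (Acta2, Tagln, Twist2, Lox and Thy1), beside 4.25% of all genes called lower. In UNC0638 13 of 13 were lower and 1 was called, beside 2.71%. In a library, 0 to 2 of the 15 feeder genes were at or near 0. The trophectoderm list summed to 51.8 to 206 CPM in WT and to 28.8 to 76.6 in Dppa4 KO, ranges that overlapped in UNC0638 and not in DMSO. Of 7 measured trophectoderm genes 1 was called lower in DMSO and 3 in UNC0638. The part of these cells in the members' differences was not tested.

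Of the pathway around the network, 2 of 27 other pluripotency genes were called higher in Dppa4 KO in DMSO and 3 lower, beside 2.39% and 4.25% of all genes. In UNC0638 0 were called higher and 2 lower (Dppa3 and Tex19.1), beside 1.77% and 2.71%. The lower ones were Dppa3 (-4.20, limma adjusted p = 0.00667), Tex19.1 (-2.32, limma adjusted p = 0.00168) and Fbxo15 (-0.71, limma adjusted p = 0.0195), genes that were higher in sorted 2CLCs, and the higher ones Tcl1 (1.36, limma adjusted p = 0.00917), which sustains self-renewal, and Fgf4 (0.61, limma adjusted p = 0.0459), the autocrine FGF of mESCs. In the LIF-STAT3 list Socs3, a direct STAT3 target, was called higher in DMSO (0.66, limma adjusted p = 0.0243) and in UNC0638 (0.73, limma adjusted p = 0.0183), and Pim1 lower in UNC0638 (-0.69, limma adjusted p = 0.0407). Of 15 FGF-ERK genes 2 were called higher in DMSO, the feedback inhibitor Spry4 (0.77, limma adjusted p = 0.0209) and the ERK target Etv4 (0.61, limma adjusted p = 0.0354), and Fgfr2 was lower (-1.31, limma adjusted p = 0.0429), while in UNC0638 Etv4 was called higher (0.67, limma adjusted p = 0.0306) and Egr1 lower (-1.03, limma adjusted p = 0.0459). None of 11 WNT-TCF7L1 genes was called in DMSO, and Cdx1 was higher in UNC0638 (1.72, limma adjusted p = 0.0051). Of 11 measured exit and primed genes 2 were lower in both treatments, Sox3 and the de novo methyltransferase gene Dnmt3b, by -2.20 and -1.09 in DMSO (limma adjusted p = 0.0349 and 0.0287).

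No member was called between UNC0638 and DMSO in either genotype. In WT limma called 0 of 17258 genes, with 1504 at an unadjusted p under 0.05, while edgeR called 0 and DESeq2 14. In WT every UNC0638 library was below every DMSO library for Klf2 and Esrrb, 2 of 10 genes, beside 10.0% of all genes. Klf2 had 3221, 3069 and 3677 in DMSO and 2019, 2653 and 2803 in UNC0638 (log2 fold change -0.42, SE 0.17, limma adjusted p = 0.563). Pou5f1 had 11089, 9569 and 12960 in DMSO and 7806, 7569 and 9622 in UNC0638 (-0.42, SE 0.18, limma adjusted p = 0.563), lower in 3 of 3 libraries of the same replicate number. Deviations from the group mean correlated between WT libraries of the same replicate number in DMSO and UNC0638 (0.393, 0.14 and 0.678). They also did between replicate 1 of DMSO and replicate 2 of UNC0638 (0.163), and the labels do not say what a number marks. A fit of the 6 WT libraries with the replicate number as a block was chosen after the data were seen. In it limma called 1272 genes, 7.37% of all, and 3 members. These were Pou5f1 (-0.42, adjusted p = 0.0062), Klf2 (-0.42, adjusted p = 0.0237) and Zfp42 (0.25, adjusted p = 0.0466). Zfp42 had 5308, 4424 and 4545 in DMSO and 6609, 5217 and 5254 in UNC0638. A block within each genotype over all 12 libraries called 0 of 17258 genes in WT, and so no member.

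In Dppa4 KO cells limma called 101 genes (0.585%) with UNC0638 and none of the 10 members. Esrrb came nearest, with 16865, 16528 and 14883 in DMSO and 12972, 10754 and 9686 in UNC0638, no overlap and a log2 fold change of -0.54 (SE 0.16, limma adjusted p = 0.113), and DESeq2 called it (adjusted p = 0.0322). Klf2 had 3823, 3734 and 3039 in DMSO and 2798, 2117 and 2844 in UNC0638 (-0.46, SE 0.17, limma adjusted p = 0.21). Every UNC0638 library was below every DMSO library for Klf2, Klf4 and Esrrb, 3 of 10 genes, beside 8.03% of all genes. Tfcp2l1 had 8077, 6288 and 3258 in UNC0638, a spread that leaves its interval between -1.31 and 0.19.

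The effect of UNC0638 was not shown to differ between genotypes for any member. Limma called 0 of 17258 genes for the difference of effects, with 1076 at an unadjusted p under 0.05, and edgeR and DESeq2 also called 0. The estimates for the members ran from -0.62 (Tfcp2l1, 95% interval -1.69 to 0.44) to 0.33 (Pou5f1, -0.22 to 0.88). For Klf2, which had nearly the same estimate in both genotypes, the difference was -0.03 with an interval from -0.54 to 0.48.

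**Figure D5:**
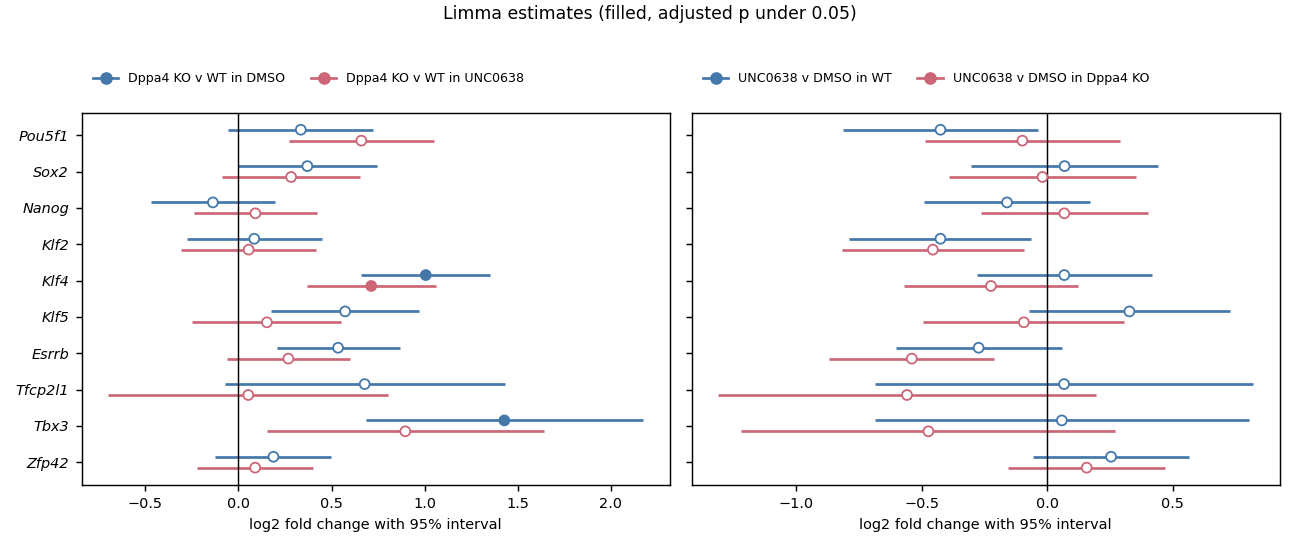
Limma log2 fold changes (horizontal axis) with 95% intervals for the 10 genes, Dppa4 KO over WT in DMSO and in UNC0638 (left) and UNC0638 over DMSO in WT and in Dppa4 KO (right), 3 libraries a group; filled points have an adjusted p under 0.05. Klf4 in both treatments and Tbx3 in DMSO are filled on the left, and no point is filled on the right.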

How the data were processed

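RNA was measured by RNA-seq in 45 libraries, with poly-A selection in the time course, washout and Dppa4 experiments and a low-input preparation in the sorted cells. Per the labels and the study's methods, reads were trimmed with Trim Galore 0.6.7 and aligned to mm10 (GRCm38) with STAR 2.7.10 without introns, so that reads across exon junctions were lost, and a read with several places was put at 1 of them at random. The authors counted reads for GENCODE genes with TEcounts at its default settings, and divided counts by DESeq2 1.34.0 size factors (R 4.1.0). The deposited signal columns are these normalized counts, as group means for 11 groups and per library for the 4 groups of the Dppa4 experiment. Deposited columns of the authors' own comparisons (fold changes, p-values) and the repeat tables were not used here.

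The mean of the group means equalled the deposited overall mean in 100% of genes. In the Dppa4 table whole reads were recovered for 100% of values (tolerance 0.01), 8399885 to 12710949 gene reads per library. Genes kept by edgeR's filter (17258) were tested with limma 3.58.1 (trend, R 4.3.3) on log2 of the value plus 1, in a model of 4 groups with contrasts, and p-values adjusted by Benjamini-Hochberg over all 17258. A gene was called at an adjusted p under 0.05. Alternatives were TMM scaling, no filter, pseudocounts of 0.5 and 5, edgeR 4.0.16, DESeq2 1.42.0, the compared groups alone, a replicate block and leaving out each library; for group means, centring, pseudocounts and a mean of at least 50. On simulated counts of these genes, 94% of 200 genes changed 4-fold in UNC0638 v DMSO in WT were found, with 8 false calls. The simulation gave every gene the same dispersion and no difference between replicates, so this share does not carry over to the real libraries. In the real contrast the 8 measured 2-cell-like genes had a median log2 fold change of 2.48, and 0 were called. Deviations of same-numbered DMSO and UNC0638 libraries correlated above 0.1 in WT (0.393, 0.14 and 0.678). One WT pair of unlike numbers did too (0.163). In Dppa4 KO the same-numbered correlations were 0.392, -0.232 and -0.005. The labels do not say what a number marks. P-values measure the spread between these libraries. Of the gene identifiers, 54349 of 55401 matched GENCODE vM21, which gave exon lengths and positions, all 10 members included.

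The named genes are all 10 members, and from each other list up to 3 genes with the largest change among those called or past the fold. Members and lists were chosen with earlier results of these data known.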

Additional observations from a re-analysis of the deposited data

How the results depend on the processing

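The number of members called between Dppa4 KO and WT in DMSO (2) was 1 with edgeR (Klf4), 3 with TMM scaling or the groups compared alone (Esrrb added), 2 with DESeq2 (Klf4 and Esrrb), 4 with the replicate block (Klf4, Tbx3, Esrrb and Klf5) and 1 to 4 when each library was left out; in UNC0638 (1) it was 2 with TMM scaling, a pseudocount of 5, edgeR or DESeq2, 0 with the groups compared alone, 3 with the replicate block (Klf4, Pou5f1 and Tbx3, adjusted p = 0.0187 in limma for Tbx3) and 0 to 2 leaving out a library. For UNC0638 v DMSO in Dppa4 KO (0) it was 1 with DESeq2, 1 with the replicate block and 0 to 1 leaving out a library, Esrrb each time; in WT (0) it was 3 with the block over the WT libraries, chosen after seeing the data. Centring took the members past the fold in 2CLC v mESC in dTAG from 4 to 2. Uncalled estimates that changed sign were Tbx3 for UNC0638 in WT (-0.041 with edgeR, -0.042 with DESeq2) and, leaving out a library, in WT Sox2 (-0.028 to 0.24), Klf4 (-0.038 to 0.24), Tfcp2l1 (-0.28 to 0.47) and Tbx3 (-0.28 to 0.57), in Dppa4 KO Sox2 (-0.13 to 0.12), between genotypes in UNC0638 Klf2 (-0.089 to 0.19), Nanog (-0.0041 to 0.20) and Tfcp2l1 (-0.24 to 0.43), and in the difference of effects Sox2 (-0.26 to 0.051), Klf2 (-0.17 to 0.11) and Zfp42 (-0.18 to 0.014). The cause was not tested. Of 1030 values for single genes with a test, 967 kept direction and call, 10 lost the call, 23 gained it and 30 changed sign, 0 of them called. Of 400 group-mean values, 398 stayed and 0 changed sign.

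Of all genes, limma called 1145 between genotypes in DMSO, against 1738 with DESeq2, 1996 with the replicate block and 312 to 1827 leaving out a library; in UNC0638 772, against 1332, 1244 and 188 to 848. For UNC0638 in Dppa4 KO it called 101, against 528, 346 and 2 to 628, 44 with edgeR, 12 without the filter, 0 with the groups compared alone and 306 with a block within genotype. Between the genotypes compared, same-numbered libraries did not all correlate above 0.1 (0.138, -0.17 and 0.054 in DMSO, 0.148, -0.174 and 0.272 in UNC0638), although those of WT DMSO and Dppa4 KO UNC0638, which are not compared, did (0.277, 0.191 and 0.33). Library-level alternatives do not apply to group means, which give no spread; the Dppa4 experiment, with 3 libraries a group, limits precision.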
